A study of Capra hircus with 2 samples.

Results

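The miR-23, miR-27 and miR-24 microRNAs (miRNAs) were followed in mammary gland of dairy goats (Capra hircus) between peak lactation and late lactation. They are the 3p products of a pair of gene clusters, here called the a cluster (miR-23a, miR-27a) and the b cluster (miR-23b, miR-27b), and miR-24 is made by both clusters with the same mature sequence. The members were all distinct reads (tags) that hold nt 2 to 17 of miR-23, miR-24 or miR-27, and 1842 of the 659118 tags of the study did, 1262 of them with reads in the peak library and 1017 in the late library. By member, 232 tags were miR-23a, 236 miR-23b, 292 miR-27a, 335 miR-27b and 675 miR-24, 19 were too short to tell a from b, 70 had neither base, and 17 tags that hold 2 such stretches were counted under both. The goats were healthy Laoshan dairy goats, 4 years old and in the third lactation, and tissue was taken by surgery at 90 days (peak) and 210 days (late) postpartum. Each stage is a pool of RNA from 5 goats that was sequenced as 1 library, the peak library with 19044002 clean reads and the late library with 7385833. The methods of the study name 5 goats and do not state outright whether the same animals gave tissue at both stages. No difference below has a replicate library behind it. Levels are reads per 1000000 clean reads (RPM), ratios are late over peak on the log2 scale, and the 95% intervals (exact Poisson for levels, exact binomial for ratios and shares) cover counting error only, since the differences between goats were lost in the pool and copies of a molecule made by PCR were counted apart.

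A miRNA guides the silencing complex to messenger RNAs by its seed, bases 2 to 8 of its mature strand. The members of such a cluster are cut from a common primary transcript, while each hairpin is processed, and each mature strand is kept or lost, on its own. miR-27 is known as a brake on fat cell formation and on genes of lipid synthesis and uptake, also in mammary epithelial cells, miR-23a and miR-23b are known to act on glutaminase, and miR-24 on genes of the cell cycle. In the goat gene table of RefSeq (assembly ARS1.2), MIR23A and MIR27A are neighbours within the span of ZSWIM4, and MIR23B, MIR27B and MIR24 are neighbours within the span of C8H9orf3.

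The most abundant tag of each member is shown, read from the deposited files, because the members are told apart by a single base. Capitals mark the seed and, for miR-23 and miR-27, the base at nt 19 that differs between a and b (T in miR-23a and A in miR-23b, C in miR-27a and T in miR-27b).
miR-23a: aTCACATTgccagggattTcca
miR-23b: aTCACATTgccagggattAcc
miR-27a: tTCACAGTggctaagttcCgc
miR-27b: tTCACAGTggctaagttcTgc
miR-24: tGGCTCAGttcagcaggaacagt
Within each family the leading a and b tags share 20 of 21 bases, and the seeds of miR-23 and miR-27 share 6 of 7 bases. The deposited tags carry no names, and these groups were named from the read counts that the study lists by name, so a level and its name are not independent of each other. A tag that ends before nt 19 was kept as shared. Shared reads made up 0.762% of the miR-23 reads in the peak library and 0.589% in the late library, and 0.0579% and 0.459% of the miR-27 reads, so nearly all reads could be given to a or b.

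Between the libraries, both miR-23 members were several times higher in the late library, while miR-27a, miR-27b and miR-24 differed by less than 2-fold. miR-23a was at 168 RPM (3208 reads) in the peak library and at 1050 RPM (7754 reads) in the late library, a log2 ratio of 2.64 (95% interval 2.58 to 2.70). miR-23b was at 200 RPM (3806 reads) and 753 RPM (5564 reads), a log2 ratio of 1.91 (1.85 to 1.97). A difference was called where it reached 2-fold and the Audic-Claverie P of the reads was below 0.01, which sets one library against the other and says nothing of goats. The miR-23 members were called as higher in the late library, as were 33.8% of all 8051 tag groups of at least 1 RPM in one library, and 26.8% of the 302 groups of at least 100 RPM led by a tag of 20 to 24 nt. The call is thus common in these libraries, whose tag groups were not limited to miRNAs. By the size of the ratio, 24 of the 302 groups stood above miR-23a and 41 above miR-23b.

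**Figure D1:**
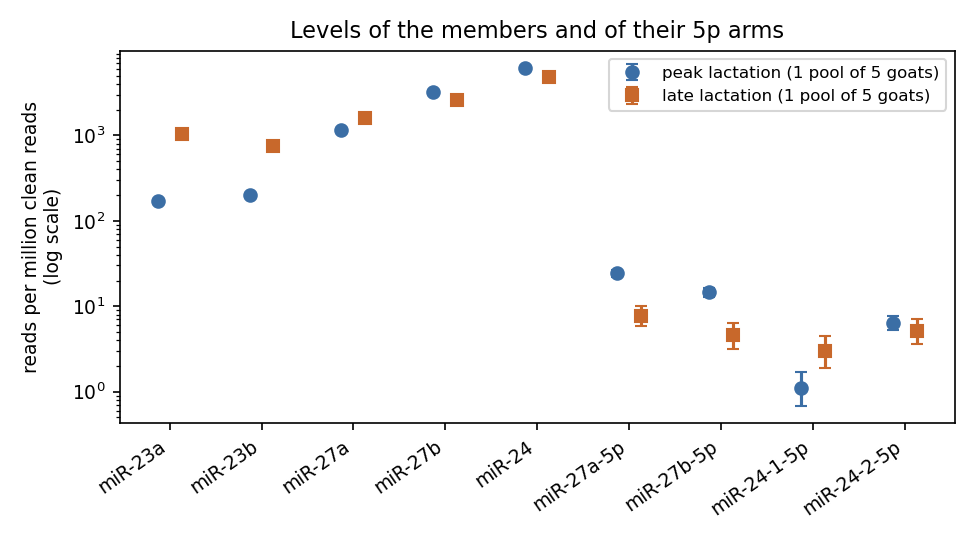
Level of each member and of the 5p arms of the same hairpins in RPM (log scale), with 1 point per library (circles, peak lactation; squares, late lactation) and 95% Poisson intervals. Both miR-23 points lie far higher in the late library, at 1050 and 753 RPM against 168 and 200 RPM, while the points of miR-27a, miR-27b and miR-24 lie close to each other.

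The miR-27 members made up most of the reads of both clusters. miR-27a, the member of the a cluster, was at 1150 RPM (21898 reads) in the peak library and at 1599 RPM (11810 reads) in the late library, a log2 ratio of 0.48 (0.44 to 0.51). miR-27b was at 3194 RPM (60832 reads) and 2614 RPM (19303 reads), a log2 ratio of -0.29 (-0.31 to -0.27). Neither ratio reached 2-fold. With all reads of the family together, miR-27 was at 4354 RPM in the peak library and 4251 RPM in the late library, a log2 ratio of -0.03 (-0.05 to -0.02).

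miR-24, the most abundant member, was at 6166 RPM (117432 reads) in the peak library and 4776 RPM (35275 reads) in the late library. Its log2 ratio of -0.37 (-0.39 to -0.35) was under 2-fold and equal, at 2 decimals, to the median of -0.37 over the 302 groups of at least 100 RPM led by a tag of 20 to 24 nt. These groups include miR-24 itself, which 151 of them exceeded, so the equality is partly built in. Over all 8051 groups the median was 0.26 and the middle 50% ran from -1.21 to 2.10. miR-24 cannot be given to a cluster, since both clusters make the same mature strand.

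In peak lactation the order of the levels was miR-24, miR-27b, miR-27a, miR-23b and miR-23a, and in the late library miR-23a stood above miR-23b. The intervals of neighbours in this order did not overlap in either library, which says nothing about the spread between goats. With more reads than the member stood 14 tag groups for miR-24 in the peak library and 20 in the late library. For miR-23a these were 266 groups in the peak library and 67 in the late library. Summed over all 1842 tags, the members took 1.09% of the peak and 1.08% of the late clean reads, a log2 ratio of -0.01 (-0.02 to 0.01), although the single members differed by up to 6.23-fold.

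**Figure D2:**
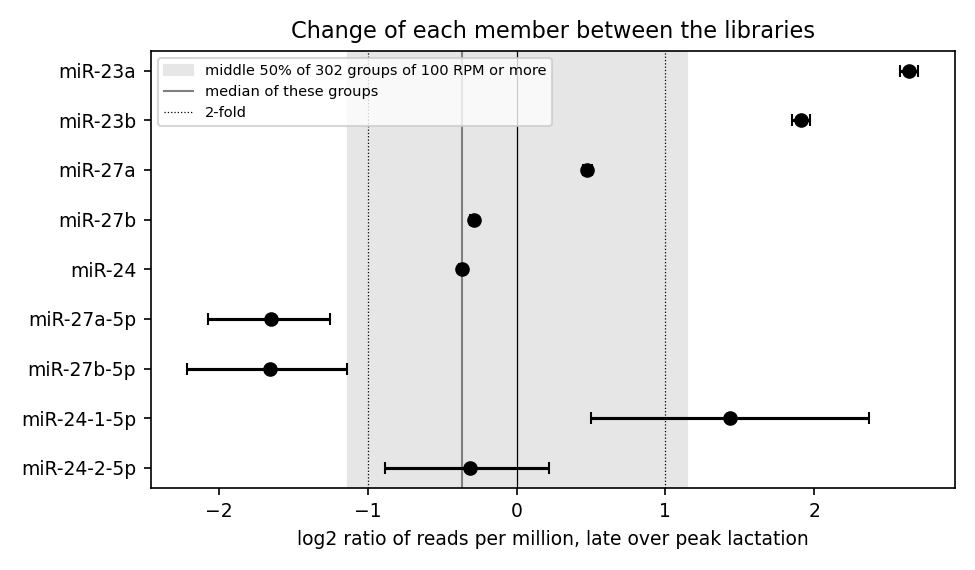
Log2 ratio of RPM, late over peak lactation, for each member and each matched 5p arm, with 95% exact binomial intervals of counting error. The grey band holds the middle 50% (-1.13 to 1.14) of 302 groups of at least 100 RPM, the grey line is their median (-0.37) and dotted lines mark 2-fold; miR-23a and miR-23b lie to the right of the band, and miR-27a, miR-27b and miR-24 lie within it.

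The a cluster and the b cluster were compared next. miR-23a and miR-27a summed to 1318 RPM in the peak library and 2649 RPM in the late library, a log2 ratio of 1.01 (0.98 to 1.03), which lies on the 2-fold limit. miR-23b and miR-27b summed to 3394 RPM and 3367 RPM, a log2 ratio of -0.01 (-0.03 to 0.01). The interval of the b cluster thus holds a ratio of no change for the sum, but not for its members. In it miR-23b had a log2 ratio of 1.91 and the more abundant miR-27b of -0.29. In the a cluster these were 2.64 for miR-23a and 0.48 for the more abundant miR-27a. The sums leave out miR-24, which both clusters make, so they do not give the output of a locus. In peak lactation the b cluster had the larger sum, with 0.388 reads of the a cluster for each read of the b cluster, and in the late library this was 0.787.

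Summed over all forms, the a member gained on the b member in both families, while single lengths differed widely. Of the reads that tell a from b, miR-23a held 45.7% in the peak library (95% interval 44.6% to 46.9%) and 58.2% in the late library (57.4% to 59.1%). miR-27a held 26.5% (26.2% to 26.8%) in the peak library and 38.0% (37.4% to 38.5%) in the late library. The log2 ratio of miR-23a exceeded that of miR-23b by 0.73 (0.64 to 0.81, Woolf interval), and that of miR-27a exceeded that of miR-27b by 0.77 (0.73 to 0.81). Each shift is larger than counting error, and the intervals of the pair of shifts overlap. The sums hide unlike forms. Among reads from nt 1 of 1 length, a comparison chosen after the data were seen, the miR-23a minus miR-23b difference was 0.87 (0.73 to 1.02) at 21 nt and 0.45 (0.26 to 0.65) at 22 nt. It was -1.02 (-1.48 to -0.56) at 24 nt, and the intervals at 19, 20 and 23 nt included 0. The miR-27a minus miR-27b difference was 0.54 (0.49 to 0.59) at 21 nt, 1.08 at 22 nt and 2.62 to 2.96 at 20, 23 and 24 nt, with an interval at 19 nt (-0.71 to 0.08) that included 0. Between the leading tags alone the differences were 2.31 for miR-23, where a 22-nt tag is set against a 21-nt tag, and 0.57 for miR-27. The near equality of 0.73 and 0.77 thus holds for the sums and not for the forms.

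Bases at nt 19 that belong to neither a nor b were rare. They made up 0.242% of the miR-23 reads in the peak library and 0.165% in the late library, and 0.171% and 0.458% of the miR-27 reads. A read that ends exactly at nt 19 could be a shorter molecule with an added base, and such reads made up 0.684% and 2.21% of the assigned miR-23 reads and 0.50% and 1.69% of the assigned miR-27 reads. The part of such reads in the a share was not tested.

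**Figure D3:**
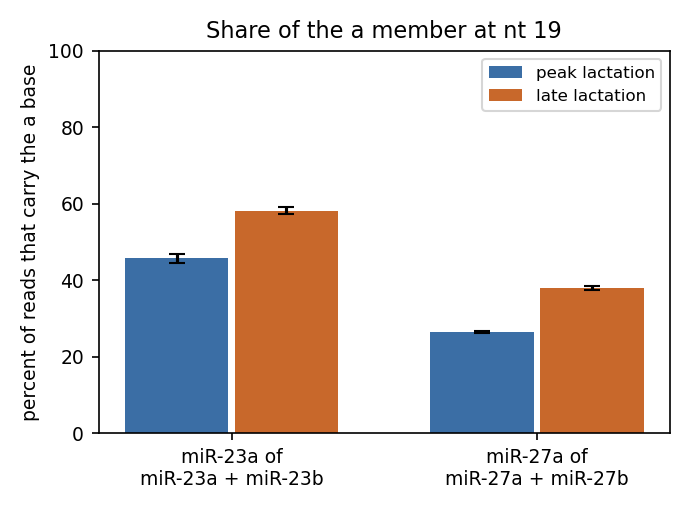
Percent of the reads of each family that carry the a base at nt 19, among reads that carry the a or the b base, with 1 bar per library and 95% exact binomial intervals. The a share goes from 45.7% to 58.2% in miR-23 and from 26.5% to 38.0% in miR-27.

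Within a cluster, miR-23 and miR-27 did not move together, although they lie next to each other in the gene table. For each read of miR-27a there were 0.146 reads of miR-23a in the peak library and 0.657 in the late library. In the b cluster there were 0.0626 reads of miR-23b for each read of miR-27b in the peak library and 0.288 in the late library. The log2 ratio of miR-23a exceeded that of miR-27a by 2.16 (2.10 to 2.23), and that of miR-23b exceeded that of miR-27b by 2.20 (2.14 to 2.27). For the summed reads the gap between the families was thus alike in both clusters, which restates the near equality of 0.73 and 0.77 above. By leading tags the gap was wider in the a cluster. There the log2 ratios were 3.65 for miR-23a (a 22-nt tag) and -0.28 for miR-27a. In the b cluster they were 1.34 for miR-23b and -0.85 for miR-27b.

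The opposite (5p) arms of the hairpins are the strands that are mostly degraded, and they differ between all hairpins, so they can be told apart also for miR-24. Of 6 arms sought, 4 were matched, and they are shown with their bases 2 to 8 in capitals for miR-27 and the same stretch of the leading tag for miR-24, because they set apart the loci that share a mature 3p strand.
miR-27a-5p: aGGGCTTAgctgcttgtgagca
miR-27b-5p: aGAGCTTAgctgattggtgaac
miR-24-1-5p: gTGCCTACtgagctgatatca
miR-24-2-5p: gTGCCTACtgagctgaaacacag
Both miR-27 arms fell. miR-27a-5p had 462 reads (24.3 RPM) in the peak library and 57 reads (7.72 RPM) in the late library, a log2 ratio of -1.65 (-2.08 to -1.25). miR-27b-5p had 276 reads (14.5 RPM) and 34 reads (4.6 RPM), a log2 ratio of -1.65 (-2.21 to -1.14). They were called as lower in the late library, as were 24.4% of all tag groups and 29.5% of the 302 groups of at least 100 RPM. Their ratios differed by 0.00 (-0.65 to 0.65), and the 0.77 of the 3p strands lies outside this interval. This contrast depends on the match. With only tags from nt 1, the log2 ratio was -1.62 for miR-27a-5p (453 peak and 57 late reads). It was -1.91 for miR-27b-5p (243 and 25 reads), and no interval of the difference was computed for this match.

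The 3p and 5p strands of the same miR-27 hairpins changed unequally. There were 47.4 reads of miR-27a for each read of miR-27a-5p in the peak library and 207 in the late library, and the difference of the log2 ratios was 2.13 (1.73 to 2.53). For miR-27b there were 220 and 568 reads of the 3p strand for each read of the 5p strand, a difference of 1.37 (0.85 to 1.88).

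The 5p arms of miR-24 were scarce. miR-24-2-5p had 122 reads (6.41 RPM) in the peak library and 38 reads (5.14 RPM) in the late library, a log2 ratio of -0.32 (-0.88 to 0.22). miR-24-1-5p had 21 reads (1.1 RPM) and 22 reads (2.98 RPM), a log2 ratio of 1.43 (0.50 to 2.37) that rests on few reads. It was called as higher in the late library, as were 33.8% of all 8051 tag groups. With a match of nt 2 to 15 the miR-24 arms merge, and this call and the difference between the arms are lost. In human and mouse miR-24-1 belongs to the b cluster and miR-24-2 to the a cluster. The difference between these arms, 1.75 (0.74 to 2.76), had miR-24-1-5p as the arm that gained, which is the opposite order to the gain of a over b in the 3p strands of miR-23 and miR-27.

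The forms (isoforms) that make up each sum differed between the libraries. Most reads began at nt 1, from 93.8% of the miR-23b reads to 99.6% of the miR-27a reads in the peak library and from 94.6% to 98.8% over the 5 members in the late library. The seed was thus the same in nearly all reads of a member. A start 1 nt later was most frequent for miR-23b, with 5.75% of its reads in the peak library and 3.61% in the late library. A start 1 nt earlier made up 0.779% of the miR-23a reads in the peak library and 2.91% in the late library.

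At the 3′ end, the tag of 22 nt that ends in A took a larger share of both miR-23 members in the late library. For miR-23a the leading tag of peak lactation had 21 nt and held 40.8% of its reads, against 30.3% in the late library.
miR-23a, 21 nt: aTCACATTgccagggattTcc
miR-23a, 22 nt: aTCACATTgccagggattTcca
miR-23b, 22 nt: aTCACATTgccagggattAcca
miR-23b, 24 nt: aTCACATTgccagggattAccact
The 22-nt tag of miR-23a went from 35.6 to 447 RPM, a log2 ratio of 3.65 (3.53 to 3.77), and its share of the miR-23a reads from 21.1% to 42.6%. The 22-nt tag of miR-23b went from 22.5 to 209 RPM, a log2 ratio of 3.22 (3.06 to 3.37), and its share from 11.3% to 27.8%. Both tags ranked first for their member in the late library. The 24-nt tag of miR-23b, which held 18.9% of its reads in the peak library and 12.2% in the late library, had a log2 ratio of 1.28 (1.13 to 1.44).

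miR-27a was led by a single form. Its 21-nt tag, shown above, held 87.7% of the miR-27a reads in the peak library (1008 RPM) and 51.8% in the late library (828 RPM), a log2 ratio of -0.28 (-0.33 to -0.24).
miR-27a, 20 nt: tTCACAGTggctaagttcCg
miR-27b, 20 nt: tTCACAGTggctaagttcTg
The 20-nt tag of miR-27a went from 49.1 to 335 RPM, a log2 ratio of 2.77 (2.66 to 2.88), and its share from 4.27% to 20.96%. The direction of miR-27a therefore turned with the form counted, positive for the sum and negative for its leading tag. The 21-nt tag of miR-27b held 65.2% of its reads in the peak library (2083 RPM) and 44.1% in the late library (1153 RPM), a log2 ratio of -0.85 (-0.89 to -0.82). The 20-nt tag of miR-27b was at 552 RPM and 603 RPM, a log2 ratio of 0.13 (0.08 to 0.18), so it moved far less than the 20-nt tag of miR-27a.

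**Figure D4:**
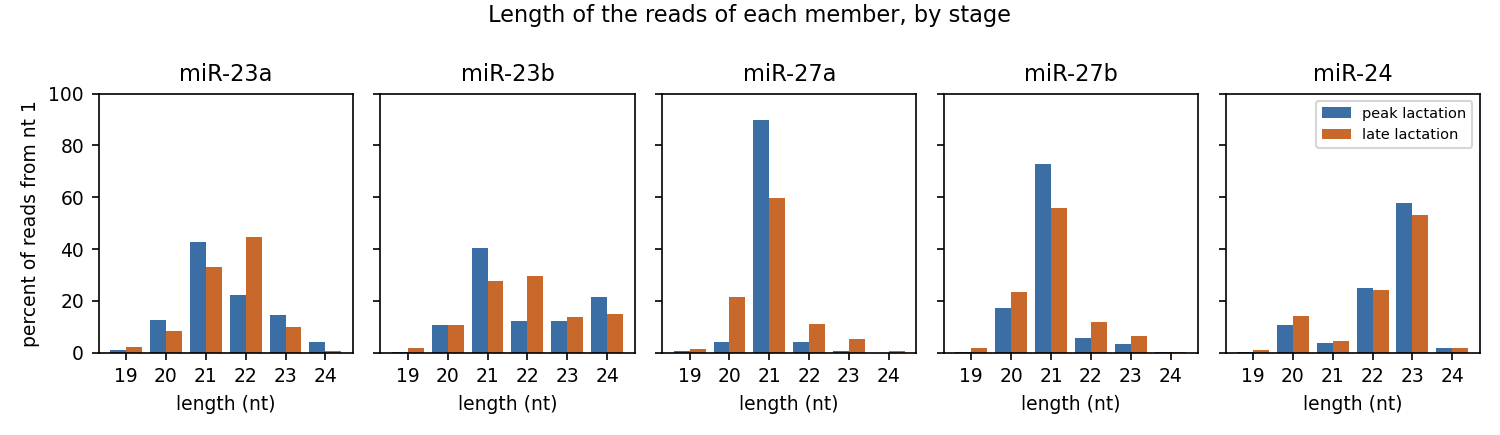
Percent of the reads of each member that begin at nt 1 by their length (19 to 24 nt), with 1 bar per library. The commonest length of miR-23a and miR-23b is 21 nt in the peak library and 22 nt in the late library, although their mean length falls. The 21-nt bar of miR-27a drops from 89.7% to 59.6%.

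Taken by length, the reads of miR-23a that begin at nt 1 had log2 ratios from 0.35 at 24 nt to 3.84 at 19 nt, and those of miR-23b from 1.38 at 24 nt to 4.22 at 19 nt. All length classes of miR-23 from 19 to 24 nt were thus higher in the late library, with an interval for miR-23a at 24 nt (-0.11 to 0.81) that includes no change. For miR-27a the 21-nt class had a log2 ratio of -0.15 (-0.19 to -0.11) and the other classes from 19 to 24 nt had ratios of 1.47 to 3.41. For miR-27b the 21-nt class had the lowest ratio, -0.68 (-0.71 to -0.65), and the 19-nt class the highest, 1.79 (1.55 to 2.02). miR-24 was the most even, with ratios of -0.49 to 0.03 from 20 to 24 nt and 1.22 (1.02 to 1.42) at 19 nt.

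**Figure D5:**
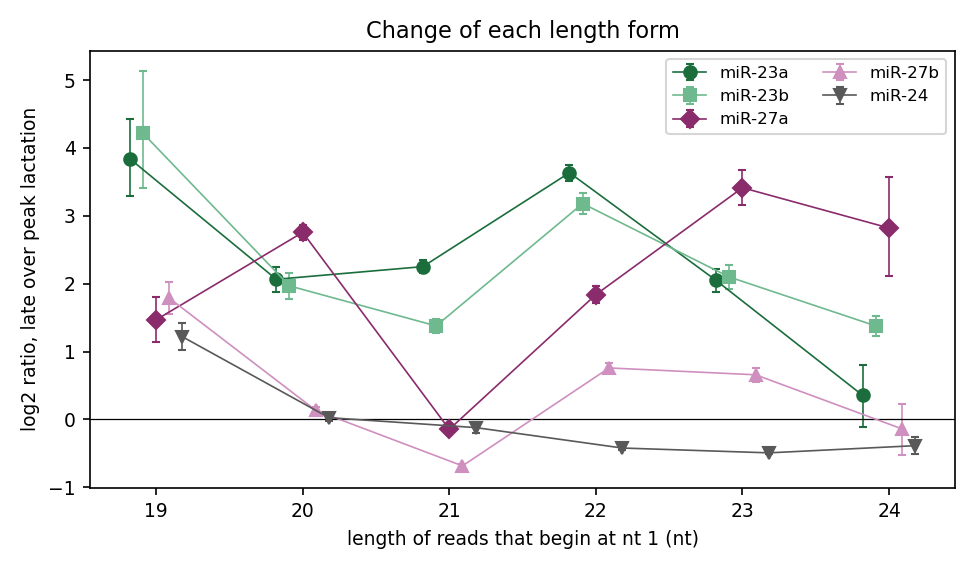
Log2 ratio of RPM, late over peak lactation, for the reads of each member that begin at nt 1, by length in nt, with 95% exact binomial intervals; lines join the lengths of a member. The 21-nt class of miR-27a lies at -0.15 while its other lengths lie between 1.47 and 3.41, and miR-24 stays between -0.49 and 0.03 from 20 to 24 nt.

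The leading miR-24 tag, of 23 nt, held 50.8% of the miR-24 reads in the peak library (3133 RPM) and 45.7% in the late library (2181 RPM), and the same 3 tags held ranks 1 to 3 in both libraries. Its 22-nt form had a log2 ratio of -0.46 (-0.50 to -0.42) and its 20-nt form of -0.03 (-0.08 to 0.02).
miR-24, 22 nt: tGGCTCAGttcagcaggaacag
miR-24, 20 nt: tGGCTCAGttcagcaggaac
None of these forms differed by 2-fold.

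Reads that begin at nt 1 and end in A took a larger share of each member in the late library. This share went from 33.8% to 52.5% for miR-23a and from 15.4% to 36.7% for miR-23b. It went from 2.62% to 11.9% for miR-27a, from 12.3% to 22.9% for miR-27b and from 11.2% to 14% for miR-24. Over 256 tag groups with at least 100 RPM in both libraries, the median change was 0.170 percentage points, the middle 50% ran from -4.72 to 3.27 points, and 133 groups went up. The miR-23 and miR-27 members thus lay above the middle 50%, and miR-24, at 2.84 points, within it. Among reads from nt 1, the share of the most abundant tag of a member, as shown at the start, changed by -34.95 points for miR-27a, -20.9 for miR-27b, -13 for miR-23b, -4.98 for miR-24 and 22.6 for miR-23a. The middle 50% of the leading tags of the 256 groups ran from -4.75 to 16.3 points. All 5 members lay outside it, miR-23a above and the others below. The leading tag was chosen by its RPM summed over both libraries, so the direction can depend on that choice. For miR-23a it is the 22-nt tag, which ranked 2 in the peak library. The 21-nt tag that ranked 1 there went from 40.8% to 30.3% of the miR-23a reads.

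Single tags of a member spread widely around its sum. Among tags with a mean of at least 5 RPM over the pair of libraries, a limit chosen after the data were seen, all 7 miR-23a tags and 7 of 8 miR-23b tags were at least 2-fold higher in the late library. Of 10 miR-27a tags, 9 were at least 2-fold higher, with a median log2 ratio of 2.35, although the sum of all miR-27a reads had 0.48. Of 12 miR-27b tags, 2 were at least 2-fold higher, with log2 ratios from -0.85 to 1.81. Of 20 miR-24 tags, 4 were at least 2-fold higher, and their median log2 ratio was -0.09. No tag of any member at this level was 2-fold lower. A limit on the mean can admit a tag that is high in either library alone. A floor of 10 reads, set on each library by itself, gave other counts. This floor is 0.525 RPM in the peak library and 1.35 RPM in the late library. A tag with 10 reads in each is thus already more than 2-fold higher in the late library. The floor therefore favours tags that are higher there, and its counts cannot check those of the limit on the mean. With it, 8 of 10 miR-23a tags were at least 2-fold higher, with a lowest log2 ratio of -0.45, as were 14 of 15 miR-23b tags. The same held for 9 of 12 miR-27a, 5 of 28 miR-27b and 14 of 44 miR-24 tags. With this floor, 2 miR-24 tags and 2 miR-27b tags were at least 2-fold lower. Tags of a member share its molecules and are not replicates.

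The libraries also differed in their adaptor contaminants, in the share of reads kept and in the miRNAs of other cell types. Contaminants with the 5′ adaptor made up 0.0494% of the peak and 14% of the late high-quality reads, and 98.5% and 73.9% of the reads were kept as clean. Of 7 miRNAs of the mammary epithelium, 6 could be matched to a tag group, and they summed to 32098 RPM in the peak library and 26958 RPM in the late library, with log2 ratios from -1.05 to 3.12. miR-143 of stroma and smooth muscle, the only match among 4 such markers, went from 189033 to 331205 RPM, and miR-126 of endothelium from 12701 to 6123 RPM. The 2 matched erythroid markers of 3 summed to 1882 and 3207 RPM (log2 ratios -0.61 to 1.005), and the 3 matched leukocyte markers of 4 summed to 1177 and 1442 RPM (-0.43 to 3.67). The part of these read losses and of these cell types in the values above was not tested. In bulk tissue fewer cells of a type and less of a miRNA per cell cannot be told apart.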

How the data were processed

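The authors ligated adaptors to RNA of 18 to 30 nt, amplified it by 15 PCR cycles, sequenced it on an Illumina 1G Genome Analyzer, removed low-quality reads, adaptor contaminants, poly(A) reads and reads under 18 nt, and deposited for each distinct tag its raw read count. No tool is named for these steps. Their later mapping and annotation (SOAP, miRBase) did not enter the deposited counts. One read is 0.0525 RPM in the peak and 0.135 RPM in the late library.

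No reference set of mature miRNA sequences was used here. All tags were grouped by nt 2 to 17 of the most abundant tag not yet taken. miR-24 was the group with counts nearest, in both libraries, to those listed under its names (largest difference 0.244%, next group 16.7%). miR-23 and miR-27 were the groups that a single base after nt 17 splits into counts nearest to a and b (6.21% and 12.1%, next groups 35.9% and 65.3%). The leading tags were not compared with a reference set of mature sequences, so their 3′ ends may differ from it. For 5p arms, groups within 10% of the listed count were ranked by duplex energy with the leading 3p tag (RNAduplex, ViennaRNA 2.7.2). Marker miRNAs were matched within 10%, with the next group at least 2 times as far. The tag groups replace the reference miRNA groups that had been planned as background. No filter for miRNAs was set on them. The study annotated clean reads also as rRNA, tRNA, snRNA and snoRNA, so a tag group need not be a miRNA. The members, lists and alternatives were chosen with earlier results of these data known.

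Tags named are the members, their 5p arms, the leading tags of each member, tags with the seed of a member, and the 2 groups nearest to each member in level. In ratios a count of 0 was set to 0.01 RPM, which is less than 1 read. The ratio of a tag group with a 0 in one library is therefore inflated. Groups under 1 RPM in both libraries were not tested. With 1 library a stage no test over goats could be made, and count models were not fitted. The call was tested on simulated data. Alternatives were TMM (edgeR 4.0.16) and median-ratio factors (DESeq2 1.42.0), other totals, other matches, a minimum of 2 reads, a pseudocount and other filters. Python 3.11.15, scipy 1.17.1 and R 4.3.3 were used.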

Additional observations from a re-analysis of the deposited data

How the results depend on the processing

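The ratios of miR-23a, miR-23b, miR-24, miR-27b and the miR-27 5p arms kept their direction and their side of the 2-fold limit under the other totals, scalings, matches, read minimum and pseudocount that were run. Of the values recomputed under alternatives set at the start, 109 moved but kept their direction and call, and 11 could not move or did not. The log2 ratio of miR-27a was -0.28 with its leading tag only, an alternative chosen after seeing the data. With the leading tags, the a minus b difference became 2.31 for miR-23, where tags of unequal length are compared, and 0.57 for miR-27. The a cluster lost its call with median-ratio factors (0.98), with tags from nt 1 (0.97) and with 1 mismatch (0.998), since it lies on the limit. The b cluster turned to 0.074 when the 10 most abundant tags were left out of the totals, which adds 0.085 to every log2 ratio. With nt 2 to 15 the 5p arms of miR-24 share their sequence and merge, with a log2 ratio of 0.11 for both, so that the call of miR-24-1-5p was lost and the direction of miR-24-2-5p turned. Of 8051 tag groups, 4686 were called (58.1% of them higher in the late library). The number was 8181 (73.4% higher) when the totals left out the 10 most abundant tags, 1140 (45.5%) with a minimum of 10 RPM, 8202 (71.7%) with no filter and 16234 (44.4%) among single tags. No paired analysis was possible because each stage has 1 library, and no replicate could be left out. Totals of reads matched to reference miRNAs, tags equal to a reference sequence and tags that follow a reference hairpin were not run, since no reference set was used here. The depth limits the 5p arms of miR-24, with 22 to 38 reads each in the late library.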

Other observations

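Tag groups led by a tag with the seed of a member but another nt 2 to 17 were few at 1 RPM or more. There were 9 for miR-23, 13 for miR-24 and 14 for miR-27, and 33 of these 36 differed from the member by 1 base in nt 2 to 17. Their reads were not counted under the members. Relative to the reads of miR-23, they came to 1.75% in the peak library and 1.01% in the late library. The values were 0.466% and 0.388% relative to miR-24, and 1.45% and 0.857% relative to miR-27. The group of tTCACAGTggctacgttctgc, 1 base from miR-27 in nt 2 to 17, had 522 peak and 2 late reads, and its log2 ratio was -6.66 (-9.71 to -4.80). The group of tTCACAGTggctcagttctgc had 87 peak and 100 late reads with a ratio of 1.57 (1.14 to 1.999) on the log2 scale, which is the opposite direction. For most of the 13 groups 1 base away from miR-27 the interval included no change.

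The tag groups nearest to each member in level were found by the distance of the log2 RPM over the pair of libraries, which is only 2 values for each group. Nearest to miR-23a was the group of aGGCAGCGgggtgtagtggat, at 149 and 1041 RPM. Nearest to miR-23b was aACGAGACtctggcatgct, at 205 and 773 RPM. Nearest to miR-27a was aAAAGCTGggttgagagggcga, at 1088 and 1959 RPM, and nearest to miR-27b tGGTAGACtatggaacgtagg, at 3674 and 2518 RPM. Nearest to miR-24 was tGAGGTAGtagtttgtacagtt, at 4847 and 4774 RPM. The distances were 0.18, 0.05, 0.30, 0.21 and 0.35 in this order. Capitals mark bases 2 to 8 of each tag. These groups were not named and need not be miRNAs.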
